A study of Mus musculus with 27 samples.

Results

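The lysosome is the acidic organelle in which cells degrade proteins, sugars, lipids and material taken up from outside. Soluble hydrolases do the cutting, membrane proteins line and transport across its wall, and the V-ATPase, a rotary proton pump, keeps the lumen acid so that the hydrolases work. The transcription factors Tfeb and Tfe3 bind a short promoter sequence, the CLEAR element, in many of these genes, and in brain microglia are especially rich in lysosomes. In amyloid models, swollen neurites around plaques accumulate lysosomes, and inherited loss of many of these enzymes causes a lysosomal storage disease.

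The 45 genes described here code for lysosomal enzymes, membrane proteins, regulators and the proton pump. They were taken by name from the deposited expression table, which writes its symbols in lower case (ctsa, ctsb, ctsd, lamp1, atp6v1a), and all 45 were found among its 26264 symbols. By role, 5 code for proteases, 11 for glycosidases, 6 for sulphatases and other enzymes that break down glycosaminoglycans, 5 for lipid hydrolases and their activator, 7 for proteins of the membrane and of sterol transport, 3 for progranulin and the factors Tfeb and Tfe3, and 8 for the proton pump and its accessory proteins. Levels are in FPKM, fragments scaled by transcript length and library size, and so can be compared between genes.

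All mice were female 5xFAD animals on a C57BL/6 background, 16 weeks old, carrying human transgenes with familial Alzheimer's disease mutations, APP among them, that are expressed in neurons under the Thy1 promoter. Vehicle, R33 or R55 (10 mM for either drug, in 500 nL) was injected into the cortex of 1 hemisphere, and 24 h later a small block of cortex was taken on each side. The vehicle group held 4 mice (8 libraries), the R33 group 5 mice (9 libraries, 1 mouse, AE, with its injected hemisphere alone) and the R55 group 5 mice (10 libraries), so that 13 of 14 mice gave both hemispheres. The study's methods describe more mice per treatment group than the labels give, and the others were not analysed here. All groups carry the transgenes and a needle injection, and none was left without surgery.

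The libraries held 15932196 to 38077026 fragments (median 27441308), and the 45 genes took 0.956% to 1.25% of them. The rarest count of any of the 45 in any library was 113 fragments (Galns), and 27 genes had at least 1000 in every library. Cortex markers were present throughout: the summed level of 6 neuronal markers per mouse lay between 3266 and 4369 FPKM. Of 5 blood markers, the 4 haemoglobin genes were listed at 0 in every library. Mouse labels have 1 letter (9 mice) or 2 letters (AA, AB, AD, AE and AH); what the letters stand for is not given in the sources used here. Summed choroid plexus markers (Ttr, Folr1, Kl) varied widely, from 12.1 to 570 FPKM per mouse with vehicle (median 49.3), 11.9 to 889.5 with R33 (median 207) and 5.26 to 110 with R55 (median 14.1); their part in the results was not tested. In bulk tissue, fewer cells of a type and less RNA per cell cannot be told apart.

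The CLEAR core TCACGTGA is its own reverse complement, so a search reads both strands at once. In a window from 250 bases before to 50 bases after the start of the canonical transcript (GRCm39, GENCODE), 6 of the 45 promoters (13.3%) held it, against 241 of 21757 protein-coding promoters (1.11%). The shorter E-box CACGTG, which lies inside TCACGTGA, was in 14 of the 45 (31.1%) and in 7.82% of all. The windows below show, for 4 of the 6 genes, the site nearest to the start, since these are the members whose promoter holds the element. Capitals mark the 8-base core.
Ctsb, chr14:63359879-63359908, plus strand: gcggtcaagcaTCACGTGAcgaatcagccc
Gla, chrX:133501931-133501960, minus strand: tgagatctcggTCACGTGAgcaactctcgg
Mcoln1, chr8:3550462-3550491, plus strand: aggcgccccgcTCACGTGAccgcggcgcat
Cln3, chr7:126182512-126182541, minus strand: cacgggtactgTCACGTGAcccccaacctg
In Gla the core began 45 bases before the start, in Cln3 111 bases before it, and in Ctsb and Mcoln1 at base 14 and 22 of the transcript. Gla held a further copy 78 bases before the start. None of the 8 proton pump promoters held TCACGTGA, and 2 of 8 held CACGTG (Atp6v1a and Atp6v1h). Of 12 other pump subunits, which are not among the 45, 2 (16.7%) held TCACGTGA. A match is a description of letters in this window and says nothing by itself about binding.

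The 45 genes were well expressed. Their median level was 34.4 FPKM, against 9.32 for the 12976 genes that entered the tests (mean level 1 FPKM or more), and all 45 were among them. Psap, the precursor of the saposins that present sphingolipids to their hydrolases, was highest at 625 FPKM, followed by the aspartic protease Ctsd at 576. Next came Atp6v1b2, a subunit of the catalytic head of the pump, at 265, the cysteine protease Ctsb at 203 and the abundant membrane glycoprotein Lamp1 at 193. At the other end, Idua and Galns, which degrade glycosaminoglycans, stood at 3.02 and 3.04 FPKM, Manba, a beta-mannosidase, at 3.34, Cln3 at 4.07 and Tfeb at 4.21.

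Levels differed more within the enzyme classes than within the pump. The 8 pump genes lay between 81.9 FPKM (Atp6v1h) and 265, a narrow band, and none stood below percentile 94.0 of tested genes. Atp6ap1, an accessory protein of the pump, stood at 174 FPKM, Atp6v0d1 at 161, Atp6v1a at 130 and Atp6v0a1 at 119. Atp6v0c, the proteolipid of the membrane ring, stood at 126 FPKM; a pseudogene copy, Atp6v0c-ps2, is listed at a mean of 2.94 FPKM, so a part of its reads may have been shared. Among glycosidases, Manba stood at 3.34 FPKM and Gaa, the acid alpha-glucosidase, at 95.4, and the lipid group ran from 8.82 (Lipa, the acid lipase) to 625.

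**Figure D1:**
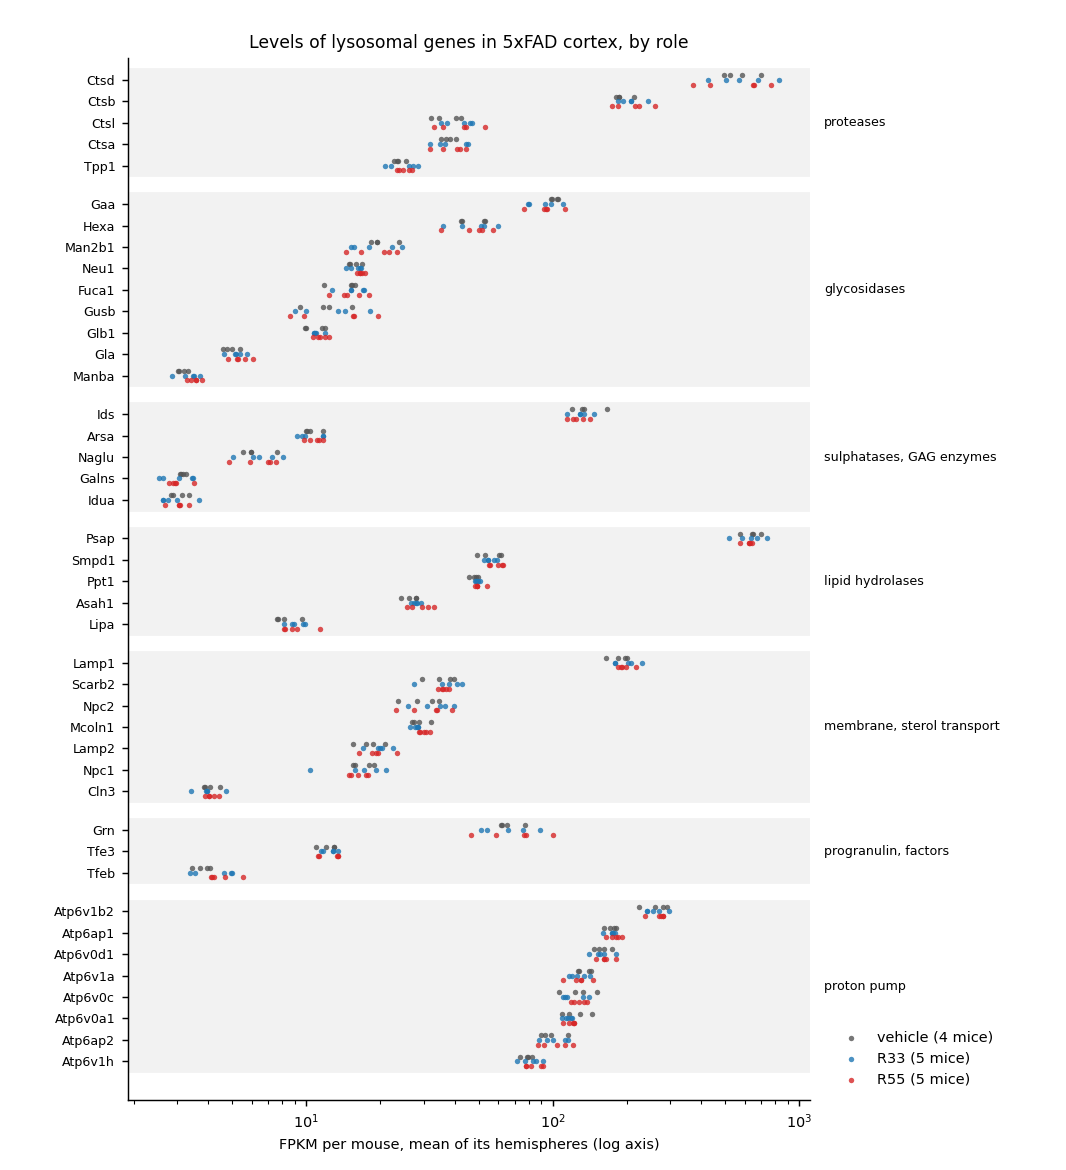
FPKM of 42 of the 45 genes by role, on a log axis, 1 point per mouse (mean of its hemispheres), coloured by treatment. The 8 pump genes sit in a band around 100 FPKM and above, the enzymes spread from 3.02 to 625, and the colours overlap for nearly every gene.

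Between mice, the spread of single genes was about that of other genes. The SD of log2(FPKM + 1) within the 6 groups of treatment and hemisphere had a median of 0.16 over the 45 genes and 0.17 over all tested genes. Some genes varied far more: between the lowest and the highest mouse, Gusb (beta-glucuronidase) differed 2.29-fold, Ctsd 2.25-fold, Grn, the progranulin gene, 2.16-fold and the sterol transporter Npc1 2.04-fold. Ppt1, a palmitoyl thioesterase, differed by 1.18-fold and Atp6ap1 by 1.19-fold.

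R55 against vehicle was the first comparison, and no lysosomal gene passed the test. Differences are on the log2(FPKM + 1) scale, from a limma fit of treatment and hemisphere over all 27 libraries, and p-values were adjusted over all 12976 genes. At an adjusted p under 0.05 limma called 0 of 45 genes, and voom on the recovered fragments also 0, as against 0.00771% of all tested genes, which is 1 gene. At an unadjusted p under 0.05, 4 of 45 were higher and 0 lower, where 4.71% of all genes were higher and 3.74% lower. The median difference of the 45 was 0.045, and that of all genes 0.026; 33 of the 45 estimates were above 0, as were 7816 of 12976 overall. Removing each library's trend on transcript length brought both medians to 0.020.

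Manba, Asah1 and Tfeb were among the 4 genes at an unadjusted p under 0.05. Manba (chr3:135191125-135278908), the beta-mannosidase, stood at 3.02, 3.21, 3.04 and 3.31 FPKM in vehicle mice J, L, M and AH and at 3.56, 3.28, 3.42, 3.59 and 3.78 in R55 mice P, Q, R, AA and AB. Only R55 mouse Q lay under the highest vehicle mouse. The difference was 0.13 ± 0.051 (SE), with an adjusted p of 0.557 from limma.

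Asah1 (chr8:41792846-41827851), the acid ceramidase, stood at 27.98, 24.2, 26.2 and 27.9 FPKM in vehicle mice and at 26.8, 25.6, 31.2, 32.9 and 29.5 in R55 mice. R55 mice R, AA and AB lay above every vehicle mouse and P and Q within their range. The difference was 0.13 ± 0.059 (SE), with an adjusted p of 0.579 from limma.

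Tfeb (chr17:48047837-48103348) stood at 3.43, 3.70, 3.95 and 4.07 FPKM in vehicle mice and at 4.10, 4.13, 4.22, 5.53 and 4.67 in R55 mice, in the orders of mice given above. Every R55 mouse lay above every vehicle mouse, P only just above AH, and no other of the 45 genes separated these groups, where 2.44% of all genes did so in either direction. The difference was 0.22 ± 0.10 (SE), with an adjusted p of 0.586 from limma. As a fold of FPKM + 1 it was 1.16, with a 95% interval of 1.003 to 1.35. With 1 value per mouse the log2 interval was -0.010 to 0.45. Mean FPKM was 3.79 with vehicle and 4.53 with R55. In single hemispheres Tfeb was far less even: in vehicle mouse L it read 4.97 FPKM on the injected side and 2.43 on the other.

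**Figure D2:**
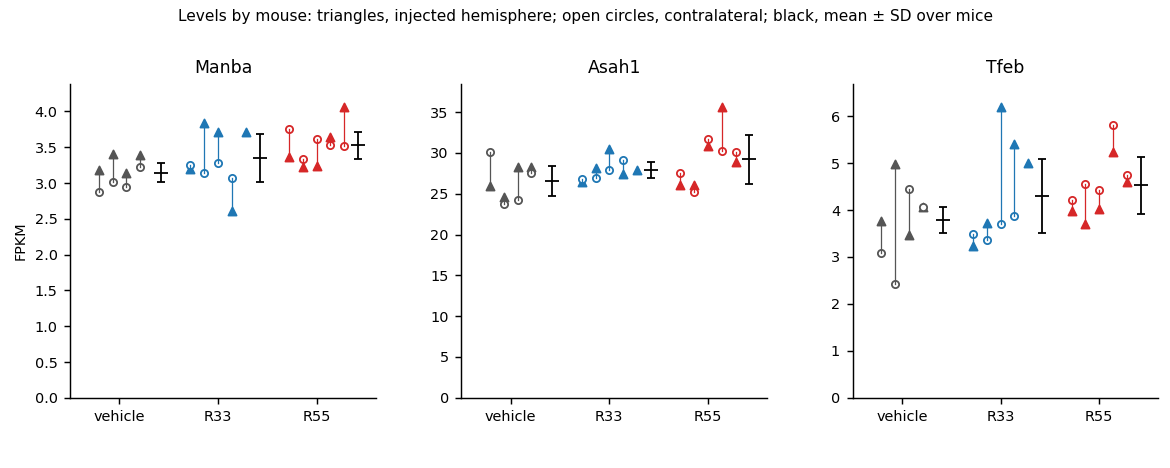
FPKM of Manba, Asah1 and Tfeb in each mouse, injected (triangles) and contralateral (open circles) hemispheres joined by a line, with the mean ± SD over mice in black; axes start at 0. R55 means are above vehicle means in all 3 panels, by at most 1.16-fold of FPKM + 1 in the fit, and single points of the groups overlap in each panel.

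The count of 4 rested on few mice. Both sides of an animal enter the fit as if independent, so its p-values for treatment are too small where the sides resemble each other. With 1 value per mouse, limma put 0 of 45 genes at an unadjusted p under 0.05, and the smallest adjusted p was 0.918. Without mouse AB the count was 0, without M or AA 1, without P or L 6, in place of 4, and in mice with labels of 1 letter alone it was 0. Over the 14 mice Asah1, Tfeb and Manba had an r of 0.79, 0.76 and 0.26 with a score of microglial markers. Over the differences between hemispheres r was 0.39, 0.063 and -0.035, and over the 9 mice with labels of 1 letter 0.74, 0.47 and -0.098. The summed level of these markers per mouse was 255 to 368 FPKM with vehicle and 211 to 500 FPKM with R55; the part of these markers in the differences was not tested.

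The other regulators and fixed examples of each role differed little. Tfe3 had 10.9, 12.95, 11.98 and 12.97 FPKM in vehicle mice and 11.2, 11.1, 13.4, 13.3 and 13.4 in R55 mice, with a difference of 0.032 ± 0.056 (SE, limma adjusted p = 0.852). Lamp1 had 197, 165, 183 and 200 FPKM with vehicle and 184, 189, 192, 217 and 198 with R55, a difference of 0.075 ± 0.073 (SE, limma adjusted p = 0.721). Atp6v1a, the catalytic A subunit, had 140, 143, 128 and 127 FPKM with vehicle and 146, 131, 110, 130 and 124 with R55, a difference of -0.077 ± 0.073 (SE, limma adjusted p = 0.715). In all 3 genes the groups overlapped.

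Ctsd and Grn spread widely within the R55 group. Ctsd had 587, 497, 521 and 700 FPKM in vehicle mice and 369, 435, 649, 769 and 652 in R55 mice, and the difference was -0.052 ± 0.17 (SE, limma adjusted p = 0.925). Grn had 65.4, 62.3, 61.6 and 77.4 FPKM in vehicle mice and 46.5, 58.6, 76.4, 101 and 78.0 in R55 mice, a difference of 0.061 ± 0.15 (SE, limma adjusted p = 0.899). For both genes, R55 mice P and Q were the lowest 2 of the 9 and AA the highest.

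By role, the medians of R55 against vehicle were 0.066 for the proteases (4 of 5 estimates above 0), 0.075 for the glycosidases (8 of 11), -0.010 for the sulphatase group (2 of 6), 0.079 for the lipid group (4 of 5), 0.067 for the membrane group (6 of 7), 0.061 for progranulin and the factors (3 of 3) and 0.032 for the pump (6 of 8). The 6 genes with a CLEAR core had a median of 0.087 (5 of 6 above 0), and the other 39 had a median of 0.043. In R55 against R33 all 6 were above 0 (median 0.058), as were 32 of the other 39. In R33 against vehicle 3 of the 6 were above 0 (median 0.0030), as were 19 of the other 39 (median -0.00091). Split by the E-box, R55 against vehicle had a median of 0.053 in the 14 genes with it and 0.045 in the other 31. In R55 against vehicle all 45 had a 95% interval inside 1.41-fold of FPKM + 1 in either direction, and 31 inside 1.2-fold. Folds of intervals are on this scale throughout, which understates changes in FPKM for genes at a few FPKM, such as Tfeb and Manba. With 1 value per mouse, 20 lay inside 1.2-fold, 42 stayed inside 1.41-fold, Ctsd and Gusb being among the exceptions, and all 45 inside 2-fold.

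**Figure D3:**
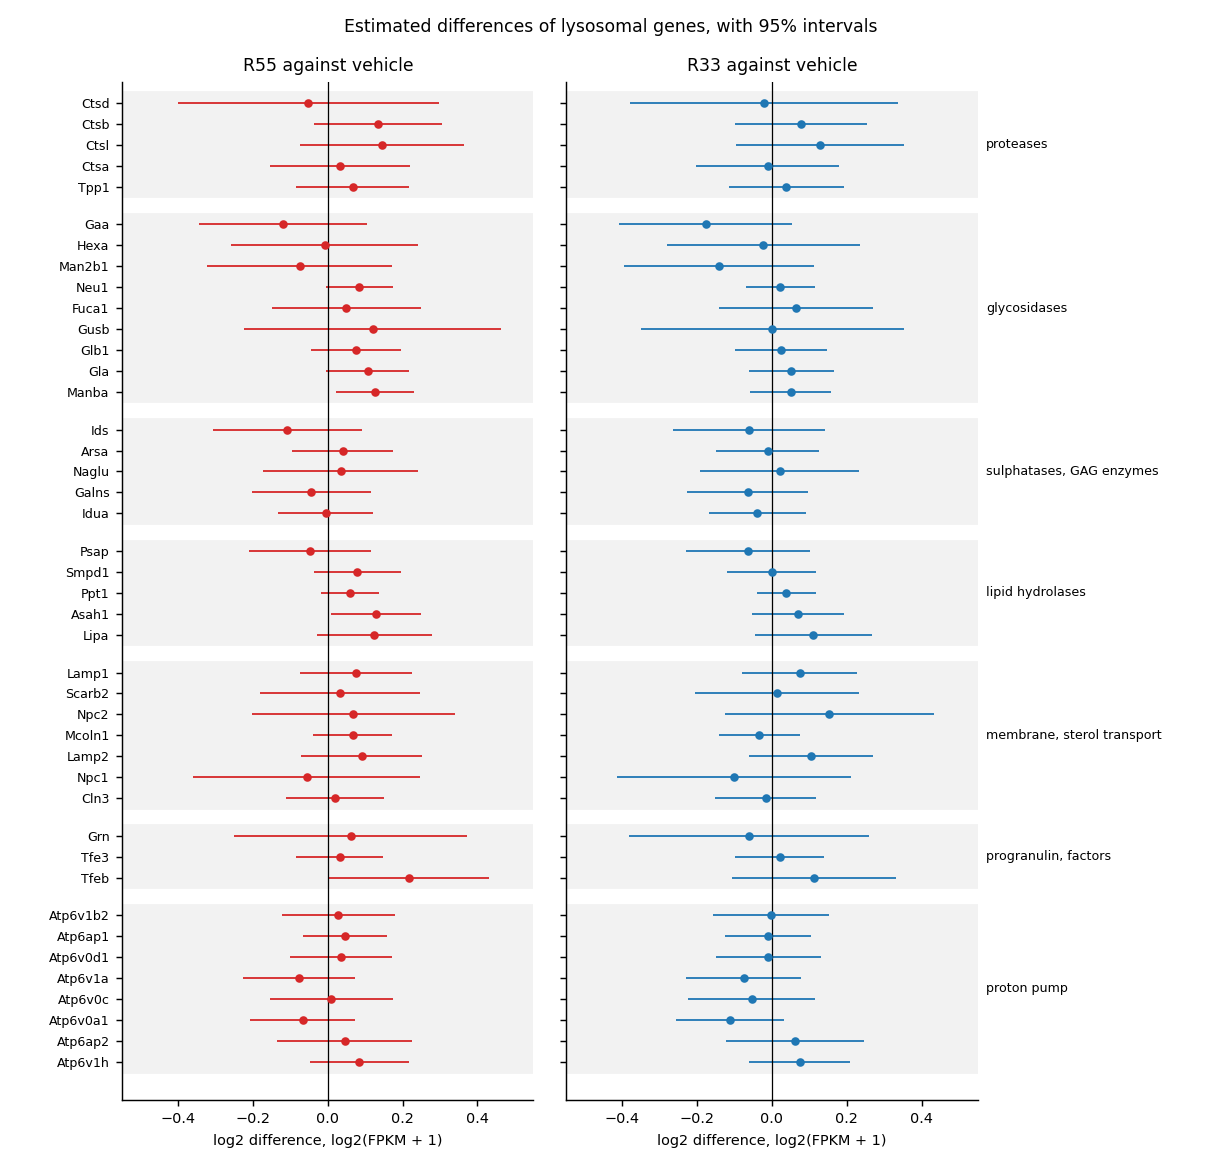
Estimated log2 difference of 42 of the 45 genes (points) with its 95% interval (lines) for R55 and R33 against vehicle, by role. No interval reaches 0.5 on the log2 scale, and the widest belong to Ctsd, Gusb and Grn. In R55 the intervals of Manba, Asah1 and Tfeb lie just above 0, in a fit that counts both hemispheres of a mouse as independent. With 1 value per mouse they include 0, at -0.016 to 0.27, -0.030 to 0.29 and -0.010 to 0.45.

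R33 against vehicle, which shares the vehicle mice with the comparison above, gave 0 of 45 genes at an adjusted p under 0.05 (0% of all genes) and 0 at an unadjusted p under 0.05, where 3.19% of all genes were higher and 2.68% lower. The median of the 45 was -0.00091 against 0.018 for all genes, with 22 estimates above 0 and 23 below. All 45 intervals lay inside 1.41-fold and 30 inside 1.2-fold (41 and 22 with 1 value per mouse), and no gene separated the mice of the groups (0.709% of all genes did). Without vehicle mouse J, 3 of 45 were at an unadjusted p under 0.05, and without R33 mouse O 1 was.

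The 4 smallest p-values belonged to Atp6v0a1, Gaa, Lipa and Lamp2. Atp6v0a1 (chr11:100881700-100954548), a membrane subunit of the pump, had 115, 114, 120, 109 and 118 FPKM in R33 mice K, N, O, AD and AE and 109, 144, 116 and 129 in vehicle mice, a difference of -0.11 ± 0.070 (SE, limma adjusted p = 0.850). Vehicle mouse L was far above the rest, and without it the difference was -0.041. Gaa (chr11:119158708-119176525), the acid alpha-glucosidase lost in Pompe disease, had 79.8, 92.95, 110.4, 79.7 and 98.7 FPKM with R33 and 99.2, 104, 105 and 98.0 with vehicle, a difference of -0.18 ± 0.11 (SE, limma adjusted p = 0.850). The 3 R33 mice K, N and AD were below every vehicle mouse and O above all of them.

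Lipa (chr19:34469712-34522163) had 8.78, 8.96, 9.72, 8.12 and 9.85 FPKM with R33 and 9.60, 7.60, 8.09 and 7.72 with vehicle, a difference of 0.11 ± 0.076 (SE, limma adjusted p = 0.850). Lamp2 (chrX:37488520-37545340), the receptor of chaperone-mediated autophagy in one of its isoforms, had 19.5, 19.9, 20.3, 17.1 and 22.6 FPKM with R33 and 20.9, 15.5, 17.5 and 18.6 with vehicle, a difference of 0.10 ± 0.081 (SE, limma adjusted p = 0.850). In both, the R33 mice lay inside or just above the vehicle range. Of the fixed examples, Tfeb had 3.37, 3.54, 4.94, 4.65 and 5.01 FPKM with R33, so that K was below every vehicle mouse, N above J alone, and the others above all of them (0.11 ± 0.11, SE, limma adjusted p = 0.863).

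The remaining fixed examples overlapped the vehicle mice widely. Tfe3 had 11.8, 11.5, 12.8, 13.4 and 12.8 FPKM in the R33 mice, a difference of 0.021 ± 0.058 (SE, limma adjusted p = 0.950). Lamp1 had 180, 202, 209, 179 and 230 FPKM (0.074 ± 0.075, SE, limma adjusted p = 0.872) and Atp6v1a 142, 134, 120, 117 and 125 (-0.076 ± 0.075, SE, limma adjusted p = 0.867). Ctsd had 425, 506, 677, 571 and 828 FPKM (-0.022 ± 0.17, SE, limma adjusted p = 0.984) and Grn 51.0, 53.9, 75.8, 66.0 and 88.4 (-0.061 ± 0.16, SE, limma adjusted p = 0.945), with AE the highest mouse for both. Values of AE are from its injected side alone, while those of the other mice are means of both sides.

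R55 against R33 set the drugs side by side at 10 mM and 24 h. No gene of the 45 passed at an adjusted p under 0.05 (0% of all genes in limma), and 1 was higher at an unadjusted p under 0.05 with 0 lower, where 0.732% of all genes were higher and 0.416% lower. The median of the 45 was 0.044, with 38 estimates above 0, and that of all genes 0.0048; in mice with labels of 1 letter it was -0.013, and without R55 mouse AA 0.011. The count of 1 became 0 without K, N, Q or AB, and 2 without J, L or R. All 45 intervals lay inside 1.41-fold and 36 inside 1.2-fold (42 and 31 with 1 value per mouse).

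Mcoln1 (chr8:3550452-3565253), the lysosomal calcium channel TRPML1, had 28.5, 28.4, 28.1, 27.7 and 26.4 FPKM with R33 and 30.2, 31.7, 28.7, 29.0 and 30.7 with R55. Every R55 mouse lay above every R33 mouse, the only such gene of the 45 where 0.0848% of all genes separated these groups, but vehicle mouse L at 32.1 FPKM was higher than any of them. The Mcoln1 difference was 0.10 ± 0.050 (SE, limma adjusted p = 0.9998).

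Manba had 3.22, 3.49, 3.49, 2.85 and 3.72 FPKM with R33 (0.076 ± 0.050, SE, limma adjusted p = 0.9998), and in mice with labels of 1 letter the difference was 0.0082. Smpd1 (chr7:105203564-105207597), the acid sphingomyelinase, had 54.5, 59.1, 52.4, 58.0 and 54.5 FPKM with R33 and 55.4, 62.3, 54.97, 62.7 and 60.1 with R55 (0.080 ± 0.054, SE, limma adjusted p = 0.9998). The fixed examples gave 0.10 ± 0.10 for Tfeb, 0.011 ± 0.055 for Tfe3, 0.00098 ± 0.071 for Lamp1, -0.030 ± 0.16 for Ctsd, 0.12 ± 0.15 for Grn and -0.0013 ± 0.071 for Atp6v1a (log2 difference ± SE), and in each of these 6 genes the drug groups overlapped.

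Injected against contralateral hemisphere, over all treatments, gave 0 of 45 genes at an adjusted p under 0.05 (0% of all genes in limma) and 0 at an unadjusted p under 0.05, where 1.46% of all genes were higher and 2.01% lower on the injected side. The median of the 45 was 0.013, and that of all genes 0.00097. With the mouse as a block, which uses the 13 mice with both hemispheres, 1 of the 45 was at an unadjusted p under 0.05 (Ctsb) where 6.13% of all genes were in either direction, and the smallest adjusted p was 0.790. In that fit 44 of 45 intervals lay inside 1.2-fold.

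Ctsb (chr14:63358384-63383372) was higher in the injected hemisphere in 11 of 13 mice, with 163, 210 and 283 FPKM as lowest, median and highest on the injected side and 169, 194 and 237 on the other, a difference of 0.12 ± 0.068 (SE, limma adjusted p = 0.9999). Lamp2 was higher in 10 of 13 mice (16.1, 19.8 and 26.3 FPKM against 14.2, 18.1 and 21.3; 0.099 ± 0.064, SE). Ctsl, a cysteine protease, was also higher in 10 of 13 (30.3, 41.7 and 57.2 FPKM against 30.9, 39.1 and 48.7; 0.11 ± 0.087, SE). Tfeb was higher in 5 of 13 although its mean difference was 0.11 ± 0.085 (SE), since a few mice, L, O and AD among them, had much higher injected values. All ranges overlapped, and the adjusted p of each was 0.9999 in limma.

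The fixed examples ran as follows between hemispheres. Tfe3 was higher on the injected side in 10 of 13 mice (10.9, 12.9 and 13.8 FPKM as lowest, median and highest against 10.6, 12.4 and 13.8; 0.048 ± 0.046, SE). Lamp1 was higher in 7 of 13 (163, 190 and 233 FPKM against 145, 193 and 208; 0.036 ± 0.059, SE) and Atp6v1a in 7 of 13 (115, 130 and 153 FPKM against 94.5, 129 and 155; 0.057 ± 0.060, SE). Ctsd was higher in 9 of 13 (322, 541 and 841 FPKM against 401, 566 and 696; 0.048 ± 0.14, SE) and Grn in 6 of 13 (42.1, 61.4 and 118 FPKM against 49.1, 68.9 and 83.2; 0.020 ± 0.12, SE). For Ctsd and Grn the injected side had both the lowest and the highest value.

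Within hemispheres, the drugs gave no called gene either. R55 against vehicle put 0 of 45 at an unadjusted p under 0.05 in the injected hemisphere, where 0.825% of all genes were, and 3 of 45 in the contralateral one, where 11.2% were. At an adjusted p under 0.05 limma called 0 of 45 in both, as against 0% and 0.0231% of all genes. The 3 were Tfeb (0.37 ± 0.14, SE), Manba (0.18 ± 0.074, SE) and Ids (-0.31 ± 0.12, SE), with limma adjusted p of 0.406, 0.413 and 0.412. Contralateral Tfeb read 3.09, 2.43, 4.44 and 4.07 FPKM in vehicle mice and 4.21, 4.56, 4.42, 5.81 and 4.75 in R55 mice, which overlap through vehicle mouse M.

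Ids (chrX:69386675-69408718), iduronate sulphatase, was picked out after its values were seen. Its contralateral values were 204, 150, 117 and 134 FPKM in vehicle mice and 133, 95.6, 134, 111 and 124 in R55 mice, so that vehicle mouse J stood highest. In the injected hemisphere it read 130, 118, 123 and 128 FPKM against 151, 132, 131, 130 and 125. The R55 effect on Ids differed between hemispheres by 0.41 ± 0.18 (SE) with a limma adjusted p of 0.999, the only one of the 45 at an unadjusted p under 0.05, where 1.84% of all genes were. That count of 1 was 0 without L, Q or AA and 3 without M. With the mouse as a block, 2 of the 45 were at an unadjusted p under 0.05 for this difference (Ids and Cln3, the latter at -0.23 ± 0.11, SE, limma adjusted p = 0.806), where 5.93% of all genes were. No adjusted call was made for the R55 or the R33 difference between hemispheres (0% of all genes each), and for R33 0 of 45 were at an unadjusted p under 0.05 (0.378% of all genes).

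The other contrasts within a hemisphere had no adjusted call among the 45 or among all genes (0%). R33 against vehicle had 0 of 45 at an unadjusted p under 0.05 on the injected side (1.75% of all genes) and 0 on the contralateral side (2.62%). R55 against R33 had 0 of 45 on the injected side (3.26%) and 2 on the contralateral side (1.23%), which were again Tfeb (0.32 ± 0.14, SE) and Ids (-0.26 ± 0.12, SE); the R55 libraries are shared with the comparison above. Without AA, N or AB that count of 2 was 0, and without P it was 3, while without AA the injected side had 3.

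Other lysosomal genes, listed for context, gave no call either. Beside them, 4.71% of all genes were higher and 3.74% lower at an unadjusted p under 0.05 in R55 against vehicle (limma). Of all 12976 genes, 7816 estimates were above 0 and the median was 0.026. Of 19 other hydrolases, R55 against vehicle put 2 higher at an unadjusted p under 0.05 and 0 lower (median 0.068), and the 2 were Ctsf, a cysteine protease, at 25.9 ± 1.62 FPKM with vehicle and 29.5 ± 1.72 with R55 (SD over 4 and 5 mice), and Aga, an aspartylglucosaminidase, at 4.34 ± 0.36 and 4.94 ± 0.53. Of 18 other membrane proteins 16 were tested and 1 was higher (median 0.041); Laptm4b, which was not at that level, had 49.96 ± 1.46 and 53.7 ± 3.27 FPKM. Of 12 other pump subunits 0 were at that level and 11 estimates were above 0 (median 0.075). Atp6v0a2 had 15.5 ± 0.98 and 16.8 ± 1.33 FPKM and Atp6v1e1 280 ± 15.3 and 304 ± 20.5.

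Of 6 genes of the mannose 6-phosphate route that sorts hydrolases, 1 was lower, Igf2r, a mannose 6-phosphate receptor, at 4.01 ± 0.54 FPKM with vehicle and 3.23 ± 0.33 with R55; the other receptor, M6pr, read 36.4 ± 2.38 and 38.8 ± 2.96. Of 14 genes of nutrient sensing at the lysosome, which controls Tfeb, 1 was higher and 1 lower. These were Rragc, a Rag GTPase, at 29.7 ± 1.38 and 32.8 ± 1.06 FPKM, and the kinase gene Mtor at 14.5 ± 1.5 and 12.6 ± 0.62. None of the context genes was called, and the smallest adjusted p among them was 0.545 (Rragc; limma).

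Several of the more variable enzymes ran with microglial markers over the mice, and Npc1 did not. A microglial score was the mean log2 level of 7 markers (Cx3cr1, P2ry12, Tmem119, Csf1r, Aif1, Itgam, C1qa), each centred over the 14 mice. Over these mice, Gusb ran with it at a Pearson r of 0.99 (Spearman rho 0.97), Grn at 0.955 (0.98), Ctsd at 0.94 (0.91), Ctsl at 0.91 (0.84), Ctsb at 0.90 (0.89), Hexa at 0.90 (0.85) and Ctsa at 0.89 (0.89). Npc2, the soluble sterol carrier, and Naglu followed at 0.86 and 0.83. In all, 10 of 45 had an r over 0.8, against 2.78% of all tested genes; points share library depth and tissue composition, and these values are a description.

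The roles differed. The median r with the microglial score was 0.90 for proteases, 0.67 for glycosidases, 0.35 for the sulphatase group, 0.38 for the lipid group, 0.40 for membrane proteins and 0.76 for progranulin and the factors. All 8 pump genes had an r below 0, from -0.76 (Atp6v1h) to -0.16 (Atp6v1b2), but by rank the sign was not uniform, with a Spearman rho from -0.71 (Atp6v1h) to 0.024 (Atp6v1b2) and 0.015 for Atp6v0d1. Psap at 0.11 and Smpd1 at 0.015 lay near 0, as did Npc1, the membrane partner of Npc2, at -0.032. With a neuronal score from 6 markers the r of the 45 genes lay between -0.61 and 0.50 (Neu1, a sialidase). With an astrocyte score from 5 markers 6 of 45 had an r over 0.8, against 1.60% of all tested genes. They were Lamp1 at 0.93, Ctsl and Lamp2 at 0.84, Npc2 at 0.83, and Gusb and Fuca1 at 0.81. Of the other genes named with the microglial score, Hexa had 0.79, Ctsd 0.77, Grn and Ctsb 0.71, Naglu 0.68 and Ctsa 0.67. The genes named with the microglial score thus also had a positive r with the astrocyte score, each lower than with the microglial one. The scores themselves were not independent. Mice AA and AE were the highest in both, at 0.55 and 0.38 for microglia and 0.37 and 0.58 for astrocytes. These values therefore cannot tell the cell types apart.

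**Figure D4:**
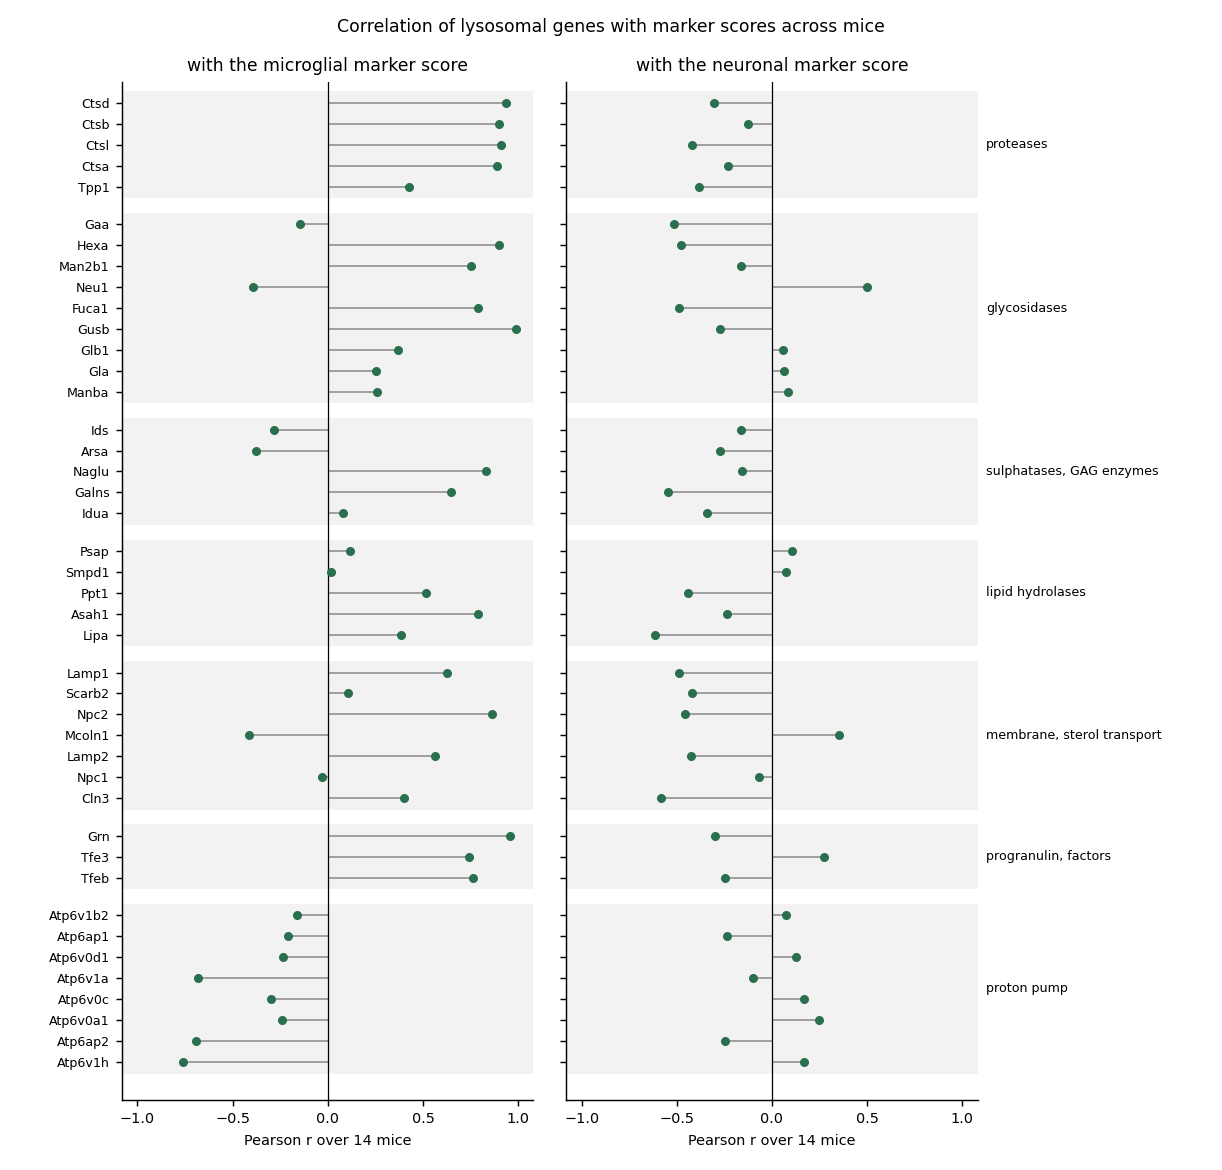
Pearson r over 14 mice between the mean log2(FPKM + 1) of 42 of the 45 genes and the microglial score (left) or the neuronal score (right), by role. Ctsa, Ctsb, Ctsd, Ctsl, Gusb and Grn stand near 0.9 or above on the left, the 8 pump genes are all below 0 there by Pearson r, and no gene exceeds 0.50 on the right.

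The mice lay in 2 stretches of the microglial score, 5 mice (K, L, N, P and Q, from every treatment group) between -0.50 and -0.32 and 9 mice between -0.028 and 0.55. Among those 9, r was 0.97 for Gusb, 0.94 for Grn and 0.82 for Ctsd. For the pump r ran from -0.25 (Atp6v1a) to 0.57 (Atp6ap1) in these 9, while in the 9 mice with labels of 1 letter it ran from -0.83 (Atp6v1a) to -0.41 (Atp6v0a1). Without the 2 mice farthest from the median score, Gusb had 0.98 and Grn 0.93, and over the differences between hemispheres of 13 mice Grn had 0.87 and Gusb 0.83. The others named with an r over 0.8 had lower values over these differences, from 0.31 (Ctsb) to 0.79 (Hexa), with 0.75 for Ctsd.

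**Figure D5:**
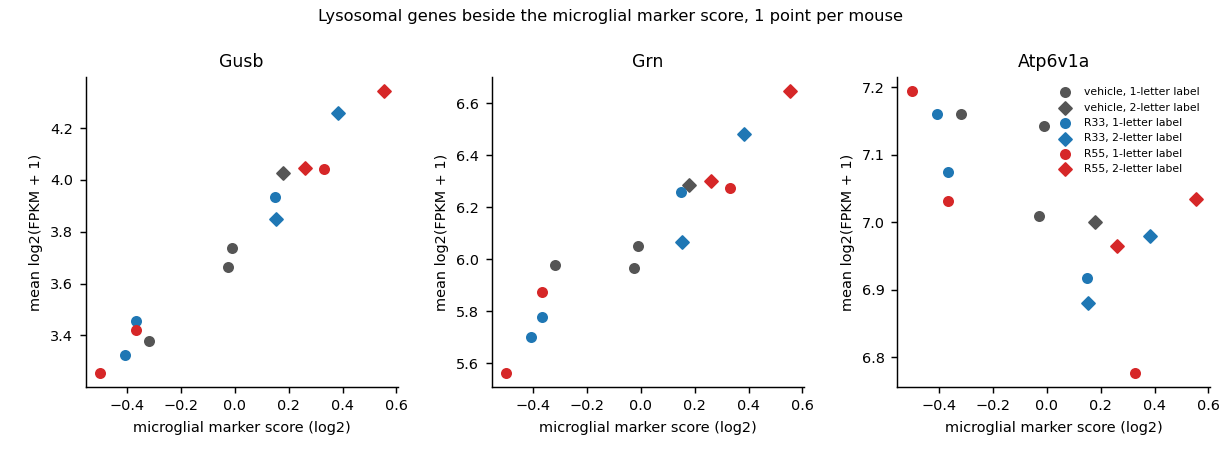
Mean log2(FPKM + 1) of Gusb, Grn and Atp6v1a against the microglial score, 1 point per mouse, coloured by treatment, with diamonds for labels of 2 letters. Gusb and Grn are higher at higher scores in all treatments, R55 mice lie at both ends of the score, and Atp6v1a is lower at the right of the panel with wide scatter.

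The mouse label was compared next. It is a property of the mouse, and with 1 value per mouse 2 of the 45 passed at an adjusted p under 0.05 (Ctsb and Gusb, limma adjusted p = 0.0431 and 0.0429), where 5.71% of all genes did. In a limma fit of treatment, hemisphere and the number of letters in the label over all 27 libraries, which counts both hemispheres of a mouse as independent, 12 of 45 genes were higher in the 5 mice with 2 letters at an adjusted p under 0.05 and 0 lower, where 19.1% of all genes were called in either direction. They were 3 of 5 proteases (Ctsb, Ctsd, Ctsl), 5 of 11 glycosidases (Hexa, Gusb and Fuca1 among them), Naglu, Npc2, Grn and Tfe3, and none of the 8 pump genes or the 5 lipid genes. Gusb stood at 11.2 ± 2.47 FPKM (SD, 9 mice) in mice with 1 letter and 16.4 ± 2.42 (SD, 5 mice) in those with 2, a difference of 0.50 ± 0.11 over libraries (SE, limma adjusted p = 0.0038) and 0.52 ± 0.14 over mice (SE). Ctsd stood at 518 ± 103 and 704 ± 100.1 FPKM (limma adjusted p = 0.0137 over libraries and 0.0695 over mice) and Grn at 61.3 ± 10.3 and 82.1 ± 13.0 (0.0125 and 0.0628), so that neither passed with 1 value per mouse.

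The label moved with tissue markers as well: summed microglial markers lay between 211 and 403 FPKM in mice with 1 letter and between 368 and 500 in those with 2, and summed endothelial markers (Cldn5, Pecam1, Flt1, Tek) between 44.6 and 72.7 against 20.5 and 28.9, without overlap. Of the mice with 2 letters, 1 was in the vehicle group, 2 in the R33 and 2 in the R55 group, so the label was not balanced between treatments. With the label as a term, 3 of 45 genes were at an unadjusted p under 0.05 in R55 against vehicle in place of 4, and the median of the 45 was 0.025, against 0.027 for all genes. The part of the label or the markers in the treatment differences was not tested further.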

How the data were processed

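Cortex RNA was sequenced as stranded mRNA libraries; per the labels and the study's methods the authors aligned reads with HISAT2 to GRCm39. The counting tool and annotation are not given in the sources used here. The authors deposited 1 table of FPKM values with lower-case symbols, whose 32 libraries include 5, some of them named wt, that carry no label here and were not used. Whole fragments and transcript lengths were recovered from the deposited FPKM (100% of values above 0 whole within 0.01), which gave the depths. Levels are means over a mouse's hemispheres, with SD over mice.

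Tests used limma 3.58.1 (R 4.3.3) on log2(FPKM + 1) of genes averaging 1 FPKM or more, with treatment and hemisphere as separate terms, a variance trend with level, and Benjamini-Hochberg adjustment; a fit of 6 group means gave contrasts within hemispheres. A fold on this scale understates changes of low genes. The fit of treatment and hemisphere was tested on simulated data in which all libraries were independent. That test therefore does not cover the resemblance between the sides of a mouse. Shallower libraries are less precise for genes with few fragments. Groups came from the sample labels. Hemispheres of a mouse are paired, since they come from 1 animal: their deviations from group means correlated at 0.39 on average over 13 pairs (-0.079 to 0.65). Those given mouse by mouse had an unadjusted p under 0.05 or the 4 smallest p-values of a contrast, plus Lamp1, Ctsd, Grn, Tfeb, Tfe3 and Atp6v1a. Members and lists were chosen with earlier results of these data known. Alternatives changed the scaling, filter, pseudocount, moderation, samples and unit of replication, removed a trend on length, used voom on the recovered fragments, and left out each mouse in turn. Promoter windows came from GRCm39 with GENCODE release M39; all 45 symbols matched. All 45 genes enter the counts and medians, but single values of a few of them are not reported here and are left out of the figures.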

Additional observations from a re-analysis of the deposited data

Results flagged for a closer look

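Of 51 groups of mice tested for a value far from the others (the genes picked by the naming rule, in each treatment), 1 stood out: Ctsb in vehicle mouse AH, at 214 FPKM against a group median of 185, with a gap to its neighbour of 0.86 of the group's range. About 1 group in 20 is picked out by chance. Mouse AH is the vehicle mouse with a label of 2 letters. Ctsb was higher in mice with such labels, AH among them (190.0 ± 13.6 FPKM over 9 mice with 1 letter and 230 ± 21.7 over 5 with 2, mean ± SD). The part of the label in this value was not tested.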

How the results depend on the processing

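No gene of the 45 was called in a treatment or hemisphere contrast under any of the alternatives run, and the smallest adjusted p of any of them was 0.153. The median of the 45 in R55 against vehicle ran from 0.020 (length trend removed) to 0.048 (voom) and, leaving out each mouse, from 0.025 (without AA) to 0.082 (without P). In R33 against vehicle it ran from -0.017 to 0.020 and from -0.020 to 0.032, in R55 against R33 from -0.013 to 0.047 and from 0.011 to 0.063, and between hemispheres from -0.0048 to 0.014 and from 0.0046 to 0.028. All of these moves were smaller than the SD between mice of the mean of the 45 (0.089), or between hemisphere differences (0.092). Both SDs describe single mice and exceed the medians themselves, so they do not show that the medians were stable. The R55 against R33 median moved from 0.044 to -0.013 in mice with labels of 1 letter. Only the median of R55 against vehicle kept its sign throughout, and it fell from 0.045 to 0.020 with the length trend removed. With the replicate block, which pairs the hemispheres of 13 mice, the median between hemispheres was 0.0046 and the number called 0; the block changed no other call. Counts at an unadjusted p under 0.05 were less stable: in R55 against vehicle 4 became 1 under median-of-ratios scaling, 1 with the correlation within mice modelled, 2 with the length trend removed and 4 with voom, and in R33 against vehicle 0 became 3 without mouse J. Of 1046 values of the genes given mouse by mouse, 65 changed sign, all uncalled. Treatment was compared over 4 and 5 mice: with 1 value per mouse, 20 of the 45 intervals lay inside 1.2-fold in R55 against vehicle.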
